A study of Mus musculus with 10 samples.

Results

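Transcripts that mark the blood vessels of the brain were examined in adult mouse cerebral cortex, in knock-in (KI) animals with an altered Chd8 allele and in wild-type (WT) animals. The set holds 40 genes of the endothelium of the blood-brain barrier and of the mural cells around it, that is, pericytes and smooth muscle. Members were chosen by gene symbol, and all 40 are among the 13661 genes of the authors' deposited table, 30 of them endothelial and 10 mural. All 10 animals were males aged 8 weeks, and poly(A) RNA of the cortex gave 5 libraries of genotype WT and 5 of genotype Chd8 KI. The series presents the KI allele as a model of duplication of Chd8, an autism-related gene that encodes a chromatin remodeller. The sources used here do not give strain, zygosity or the design of the allele, and the labels do not say whether animals shared a litter.

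Brain endothelial cells are joined by tight junctions and carry nutrient carriers and efflux pumps, so that solutes cross the barrier mainly through the cells. Pericytes, which are recruited by platelet-derived growth factor from the endothelium, share its basement membrane and help to keep the barrier closed. Smooth muscle cells wrap arteries and arterioles and set their diameter through a contractile apparatus of actin and smooth muscle myosin. In bulk tissue these cells are a minority, and fewer cells of a type cannot be told apart from less RNA per cell.

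Values for single genes are the authors' own results of DESeq2, a package for differential expression. They comprise the mean normalised count over the 10 libraries, the log2 fold change, its standard error (SE) and a Wald test with its p before and after adjustment. Values per library were not analysed here, so no spread between animals can be shown. The header names no direction, and KI over WT was assumed since Chd8 then comes out higher (1.40-fold, 95% interval 1.22 to 1.61, log2 fold change 0.49, adjusted p = 0.0044, DESeq2 Wald test in the authors' deposited table). Of 13660 genes with a p-value there, 10 passed an adjusted p of 0.05.

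No vessel gene passed that threshold. The count was 0 of 40 members in the authors' deposited table, against 0.0732% of all genes tested. Of the members, 21 had a log2 fold change above 0 and 19 below, with a median of 0.0081 beside 0.0025 over all genes. They ran from -0.39 for Pglyrp1 to 0.29 for Ocln, and 26 of the 40 lay within 0.1 of zero on the log2 scale. Before adjustment, 3 members had a p under 0.05 in the authors' deposited table (7.5%, beside 3.22% of all genes). Esam and Ocln were the 2 on the higher side (1.34% of all genes) and Mfsd2a was the 1 on the lower side (1.88% of all genes). After adjustment the p of every member was 0.9999 in the authors' deposited table, these 3 included.

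**Figure D1:**
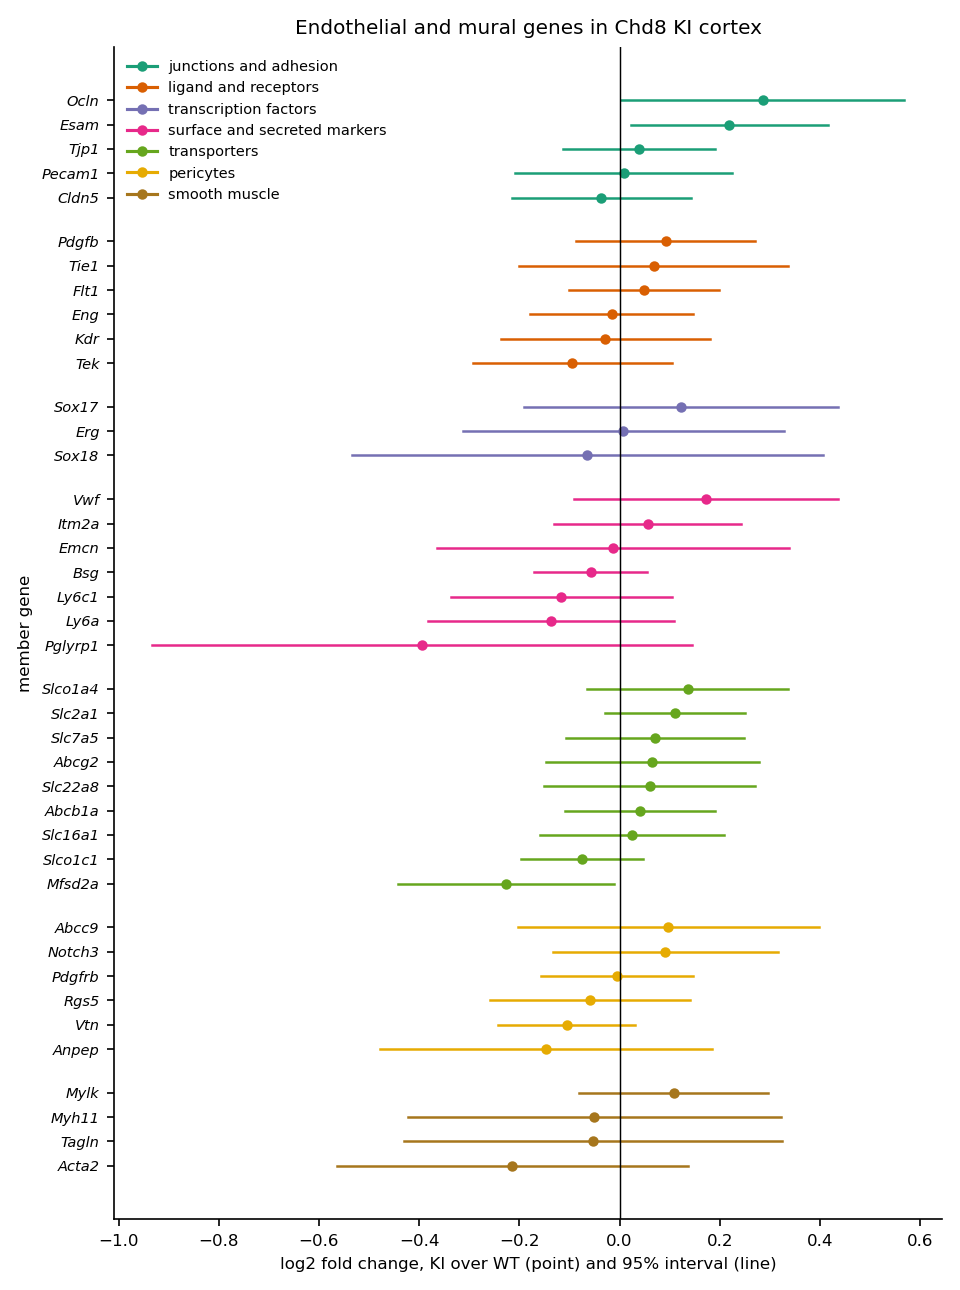
Log2 fold change of each of the 40 members, KI over WT (points), with 95% intervals from the deposited standard errors (lines), grouped and coloured by role. The interval spans 0 for 37 members and lies to one side of 0 for Ocln, Esam and Mfsd2a.

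For each gene taken alone, the interval shows what size of change in bulk cortex RNA its estimate allows. The intervals are not adjusted for the number of members. Changes confined to vessel cells were not measured apart, and members also expressed in other cells could hide them. The 95% interval spanned 0 for 37 of 40 members and lay within 0.5 of zero on the log2 scale for 36, which is 90% of members beside 88.5% of all genes. All 40 intervals lay within 1 of zero. The smallest Wald score that the authors' deposited table called was 4.15. With each gene's own standard error, that score corresponds to an estimated change of 1.18-fold for Bsg, the most precise member. It corresponds to 1.36-fold for the median member and 2.20-fold for Pglyrp1, the least precise. The largest score not called was 3.76, so the cut lies between these scores and the folds are approximate. They refer to estimated changes, and a true change of that size could still be missed.

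Levels of the members ranged from low to high, and most lay below the median gene. Per kilobase of exon, the mean normalised count of the median member was 73.7, beside 124.5 for the median gene, and 15 of 40 members lay above that median. Of those 15, 14 were endothelial and 1, Vtn, was mural. Bsg had the highest level per kilobase (4222), and it was followed by Itm2a (583), Vtn (569), Cldn5 (422), Slc7a5 (420) and Slc2a1 (387). At the low end stood Myh11 (12.6), Emcn (14.1), Vwf (20.4), Abcc9 (21.1), Anpep (22.3) and Erg (23.5), again per kilobase. Defining markers of all 3 cell types were thus listed, and neuronal genes were far higher, with Slc17a7, the vesicular glutamate transporter of cortical excitatory neurons, at 5207 per kilobase.

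**Figure D2:**
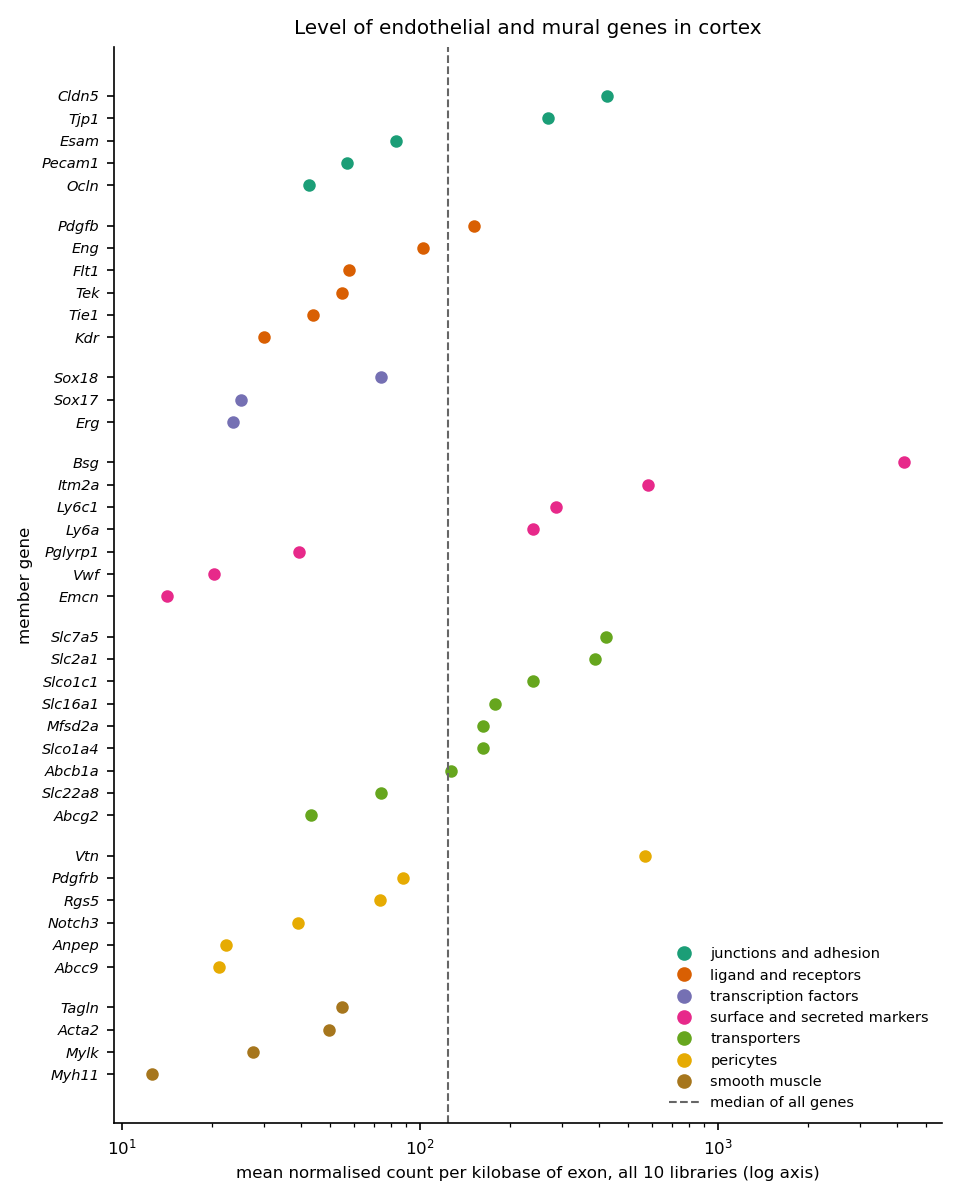
Mean normalised count per kilobase of exon over all 10 libraries for each of the 40 members (log axis), grouped by role. The dashed line marks the median of all genes (124.5); 15 members lie to its right, Bsg farthest at 4222.

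Precision followed the count. The standard error of the log2 fold change ran from 0.058 for Bsg to 0.27 for Pglyrp1 in the authors' deposited table, and across the 40 members it fell with the mean normalised count (Spearman correlation -0.889, a description across genes). Set beside genes of like count (20 bins of all genes), 32 of 40 members had a standard error above the median of their bin. The median ratio was 1.12, with a range of 0.874 to 1.65.

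**Figure D3:**
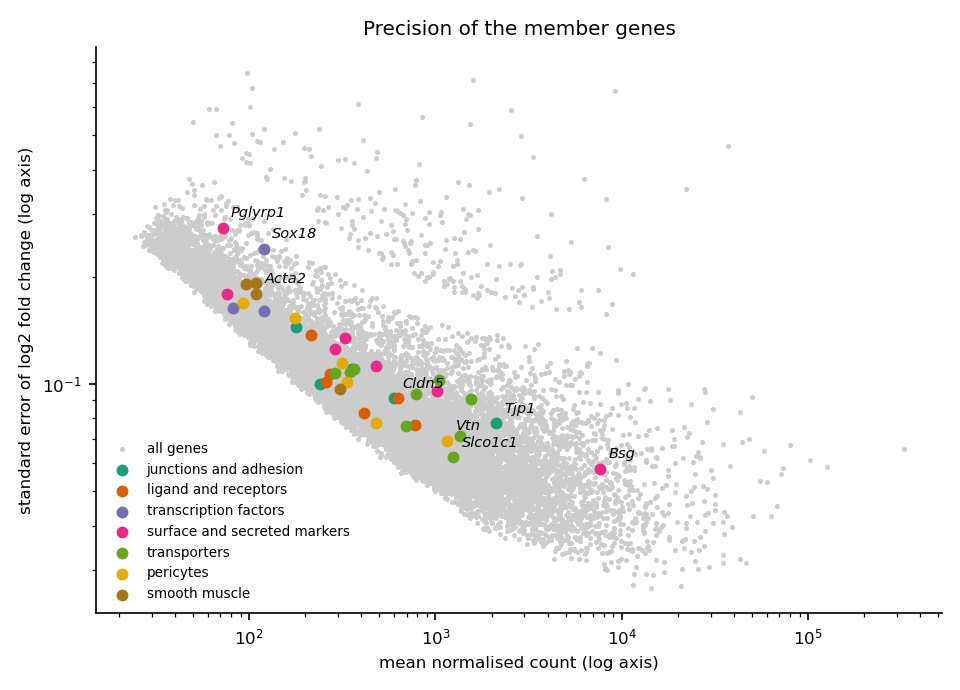
Standard error of the log2 fold change against mean normalised count for all genes (grey) and the 40 members (coloured by role), both on log axes. The members lie within the cloud of all genes, and Pglyrp1 and Sox18 have the largest standard errors among them.

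The junction and adhesion genes had 4 of 5 members on the higher side and none past the threshold. Cldn5 encodes claudin-5, the main claudin of the barrier, and its mean normalised count was 598 with a log2 fold change of -0.037 (SE 0.091) in the authors' deposited table. Its interval, 0.862 to 1.10 of the WT level, bounds the change on both sides. Tjp1, encoding the scaffold ZO-1 that links claudins to actin, stood at 0.038 (SE 0.077) in the authors' deposited table, and Pecam1, an adhesion molecule of all endothelium, at 0.0085 (0.11). Esam encodes an endothelial adhesion molecule at tight junctions, and it had the smallest p of all members. Its mean normalised count was 239, and the authors' deposited table gave a log2 fold change of 0.22 (SE 0.10, unadjusted p = 0.0289), which is 1.16-fold with an interval of 1.02 to 1.33. By p it ranked 275th among the genes tested. Ocln encodes occludin, a tight junction protein that spans the membrane, and other cells express it too. Its count was 179 and its log2 fold change 0.29 in the authors' deposited table (SE 0.14, unadjusted p = 0.0475), or 1.22-fold with an interval of 1.002 to 1.48. Neither gene can be called higher from these libraries.

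Growth factor signalling genes had the narrowest range of the roles with 5 or more members, with log2 fold changes from -0.095 to 0.092 and 3 of 6 on each side. Pdgfb, the endothelial ligand that recruits pericytes, stood at 0.092 (SE 0.091, unadjusted p = 0.312, fold 1.07 with an interval of 0.942 to 1.21) in the authors' deposited table. Its receptor gene in pericytes, Pdgfrb, stood at -0.0057 (0.077) there, with mean normalised counts of 633 for the ligand and 479 for the receptor. Flt1 and Kdr encode the VEGF receptors of endothelium, and their log2 fold changes were 0.049 (SE 0.077) and -0.029 (0.11) in the authors' deposited table. Tek, encoding the angiopoietin receptor Tie2, stood at -0.095 (0.10, unadjusted p = 0.35, fold 0.937 with an interval of 0.816 to 1.07) in the authors' deposited table, and its partner receptor gene Tie1 at 0.068 (0.14). Eng, encoding endoglin, a co-receptor of the TGF-beta family, stood at -0.016 (0.083) in the authors' deposited table. All 6 intervals of these genes spanned 0.

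The 3 transcription factors of endothelial identity were weakly expressed, with mean normalised counts of 81.6 for Erg, 119.5 for Sox17 and 119.5 for Sox18 in the authors' deposited table. Erg belongs to the ETS family and maintains the endothelial programme, and Sox17 and Sox18 are related factors of arterial and vascular development. Sox17 had a log2 fold change of 0.12 (SE 0.16, unadjusted p = 0.443), Erg one of 0.0077 (0.16) and Sox18 one of -0.065 (0.24, unadjusted p = 0.787) in the authors' deposited table. The interval for Sox18 reached from 0.690 to 1.32 of the WT level, the widest of the 3.

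Because Erg is itself a member, the upstream sequences of the endothelial genes were searched for AGGAAG, letters that hold the GGAA core of ETS sites, on both strands over the 250 bases before each annotated start. RefSeq windows (GRCm38.p6) matched 28 of the 40 members, 21 of them endothelial. AGGAAG was found for 12 of the 21 endothelial members (57.1%) and for none of the 7 mural members with a window, beside 31.3% of the 10703 genes of the authors' deposited table that have a window. Genes with several starts have several windows, and the letters were chosen with the values known, so this is a description of sequence and no evidence of binding. The 4 stretches below, from the receptor genes and Emcn, show the match in capitals within its surroundings, read 5′ to 3′ along the gene's own strand (a match on the other strand reads CTTCCT).
Flt1 (minus strand, chr5:147726034-147726089): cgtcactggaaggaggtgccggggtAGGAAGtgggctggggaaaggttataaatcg
Eng (plus strand, chr2:32646518-32646573): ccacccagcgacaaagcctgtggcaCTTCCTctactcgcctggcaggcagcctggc
Tie1 (minus strand, chr4:118490038-118490093): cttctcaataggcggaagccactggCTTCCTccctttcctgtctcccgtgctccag
Emcn (plus strand, chr3:137340960-137341015): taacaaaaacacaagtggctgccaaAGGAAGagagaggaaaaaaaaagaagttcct
The match ends 48 bases before the start in Flt1, 47 in Eng, 214 in Tie1 and 88 in Emcn. Flt1, Eng and Emcn each hold a second match in the window. The log2 fold changes of these genes in the authors' deposited table were 0.049 for Flt1, -0.016 for Eng, 0.068 for Tie1 and -0.013 for Emcn, and each interval spanned 0.

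Among surface and secreted markers, 5 of 7 lay on the lower side and none passed. Pglyrp1, a peptidoglycan recognition protein gene enriched in brain endothelium, had the most negative value of all members. The authors' deposited table gave it a mean normalised count of 72.1, the lowest of the set, and a log2 fold change of -0.39 (SE 0.27, unadjusted p = 0.151), or 0.761 of WT with an interval of 0.524 to 1.10. Vwf, encoding von Willebrand factor, the clotting protein stored by larger vessels, stood at 0.17 (SE 0.13, unadjusted p = 0.199) in the authors' deposited table, or 1.13-fold with an interval of 0.939 to 1.35. Ly6a and Ly6c1, neighbouring members of a family of small surface proteins, stood at -0.14 (0.13) and -0.12 (0.11) in the authors' deposited table. Of the 50-base stretches of Ly6c1, 36.7% also occur in transcripts of other genes, Ly6c2 and Ly6a, so reads may have been split or dropped and its value is uncertain, as it is for Ly6a (10%). Itm2a, a membrane protein gene, stood at 0.056 (SE 0.095), Emcn, encoding the sialoglycoprotein endomucin, at -0.013 (0.18), and Bsg at -0.058 (0.058) in the authors' deposited table. Bsg encodes basigin, the chaperone of lactate carriers, and neurons and glia express it widely, so its level is not one of vessels alone.

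Transporters had 7 of 9 members on the higher side, with a median log2 fold change of 0.060 and none past the threshold. Among the 2 below 0 was Mfsd2a, which encodes the carrier of docosahexaenoic acid and is known for holding down transcytosis in barrier endothelium. Its mean normalised count was 367, and the authors' deposited table gave a log2 fold change of -0.23 (SE 0.11, unadjusted p = 0.0392), or 0.855 of WT with an interval of 0.736 to 0.992. That p ranked 348th among the genes tested. Slc2a1, the glucose carrier GLUT1 of endothelium and astrocytes, stood at 0.11 (SE 0.071, unadjusted p = 0.119, 1.08-fold with an interval of 0.980 to 1.19) in the authors' deposited table. The organic anion carriers of brain vessels had opposite signs in the authors' deposited table, with Slco1a4 at 0.14 (0.10) and Slco1c1, the thyroxine carrier, at -0.075 (0.062). Efflux pumps stood at 0.040 (0.076) for Abcb1a, encoding P-glycoprotein, and at 0.065 (0.11) for Abcg2, encoding the breast cancer resistance protein, in the authors' deposited table. Carriers of monocarboxylates and of large neutral amino acids stood at 0.025 (0.094) for Slc16a1 and at 0.070 (0.090) for Slc7a5 in the authors' deposited table, and the organic anion transporter gene Slc22a8 at 0.060 (0.11). Of the 50-base stretches of Abcb1a, 17% occur in other genes, mainly its paralog Abcb1b, which itself stood at 0.062 (0.15) with a count of 89.2 in the authors' deposited table.

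Of the mural members, 7 of 10 lay below 0, with a median log2 fold change of -0.052. All 10 intervals spanned 0, and none passed the threshold either before or after adjustment. The endothelial members had 12 of 30 below 0 and a median of 0.031. No test of the difference between these medians could be made without values per library. Other mural genes, listed beside the members, did not share the lower side, with 12 of 21 above 0 and a median of 0.012. Among pericyte genes, Vtn, encoding vitronectin, a matrix protein that pericytes secrete, stood at -0.11 (SE 0.069, unadjusted p = 0.127, 0.929 of WT with an interval of 0.846 to 1.02) in the authors' deposited table, with a count of 1156. Anpep, encoding aminopeptidase N (CD13), stood at -0.15 (0.17, unadjusted p = 0.383, 0.903 of WT with an interval of 0.718 to 1.14) in the authors' deposited table. Rgs5, a regulator of G protein signalling that marks pericytes, stood at -0.059 (0.10), Notch3, the Notch receptor of mural cells, at 0.091 (0.11), and Abcc9, a subunit of the ATP-sensitive potassium channel of pericytes, at 0.097 (0.15) in the authors' deposited table. Kcnj8, which encodes the pore partner of Abcc9 and was listed beside the members, stood at 0.040 (0.17) there.

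The contractile genes of smooth muscle were among the weakest, with mean normalised counts of 109 for Acta2, 109 for Tagln and 95.6 for Myh11 in the authors' deposited table. Acta2, encoding smooth muscle actin, had a log2 fold change of -0.21 (SE 0.18, unadjusted p = 0.232, 0.862 of WT with an interval of 0.676 to 1.10) in the authors' deposited table. Tagln, encoding the actin-binding protein transgelin, stood at -0.053 (0.19) and Myh11, the smooth muscle myosin heavy chain, at -0.050 (0.19) in the authors' deposited table. Mylk, encoding myosin light chain kinase, is also expressed outside smooth muscle and stood at 0.11 (0.096, unadjusted p = 0.265, 1.08-fold with an interval of 0.945 to 1.23) in the authors' deposited table. The sources used here do not say whether counting used strand. On the other strand, 62.4% of the exon bases of Tagln overlap Gm48529 and 5.4% overlap Pcsk7, so the value of Tagln is uncertain. Of these genes, Pcsk7 is in the authors' deposited table and Gm48529 is not. The same limit holds for all 8 members with such overlaps, among them Sox17 (16.8%) and Abcb1a (10.1%). The CArG box, the motif of serum response factor, was searched in its strict form only, over the 250 bases before each annotated start. Neither Acta2 nor Mylk, the 2 contractile genes with a window, held it, beside 1.35% of genes of the table. At so low a share, absence from 2 genes is uninformative, and looser forms or other regions were not searched.

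The 3 members with an unadjusted p under 0.05 lie on different chromosomes in the RefSeq annotation of GRCm38. Esam (gene 69524) lies on chromosome 9 from 37528089 to 37538319, Ocln (18260) on chromosome 13 from 100496504 to 100552718 and Mfsd2a (76574) on chromosome 4 from 122946850 to 122961194. Cldn5 (12741), the reference junction gene, lies on chromosome 16 from 18776847 to 18778262. All 40 members are protein-coding, and each value covers the exons of the whole gene.

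Further vessel genes, listed beside the members, were examined in the same way. Of 31 other endothelial genes tested, 23 lay above 0 and 8 below, none passed, and the median log2 fold change was 0.056. The most extreme by p was Tfrc, the transferrin receptor of barrier endothelium and other cells, at 0.14 (SE 0.071, unadjusted p = 0.0405) in the authors' deposited table, and next stood Jam2, a junctional adhesion molecule gene, at 0.12 (0.066) and Nos3, the endothelial nitric oxide synthase gene, at -0.17 (0.11). Cdh5, encoding VE-cadherin, stood at 0.043 (0.12) there. The other mural genes had 21 of 30 members tested, with 12 above and 9 below 0, a median of 0.012 and none past the threshold. Synpo2, an actin-binding protein gene of smooth and skeletal muscle, had the smallest p of them, at -0.49 (SE 0.18, unadjusted p = 0.0066) in the authors' deposited table. Which cells of the cortex samples gave the Synpo2 value was not tested, and it cannot be read as one of smooth muscle alone. Basement membrane genes had 11 of 15 above 0 (8 with the trend with transcript length removed), a median of 0.027 and none past the threshold, and Sparc stood at -0.067 (0.10) in the authors' deposited table. Arterial and venous markers had 6 of 13 above 0, a median of -0.025 (0.016 with the length trend removed) and none past the threshold, with the arterial gene Gkn3 at -0.38 (0.24) in the authors' deposited table.

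Signalling that builds the barrier was covered by a pair of lists. Of 20 genes of the Wnt pathway that induces and maintains it, 13 lay above 0 and 7 below (10 and 10 with the length trend removed), with a median log2 fold change of 0.030, and 1 passed. That gene was Tcf7l2, a transcription factor of the Wnt pathway, which fell to 0.528 of the WT level (log2 fold change -0.92, SE 0.19, adjusted p = 0.0022, DESeq2) in the authors' deposited table. Tcf7l2 also stands in the list of thalamus markers, which was chosen with earlier results of these data known. Of the 9 thalamus markers tested, 4 passed, all lower and Tcf7l2 among them, beside 0.0732% of all genes. Which cells gave the value of Tcf7l2 was not tested. For the other called markers, the authors' deposited table gave Tnnt1 at -1.34 (SE 0.26, adjusted p = 0.0013, DESeq2), Ramp3 at -0.40 (SE 0.090, adjusted p = 0.0228) and Prkcd at -1.20 (SE 0.29, adjusted p = 0.0437). Of the 20 Wnt genes, 19 had intervals that spanned 0. Among these 19, the authors' deposited table gave the co-receptor gene Lrp5 at 0.16 (0.11), Wnt7a at -0.14 (0.096), Wnt7b at 0.090 (0.063), Adgra2 at 0.011 (0.12), Fzd4 at 0.055 (0.18) and the target gene Axin2 at 0.044 (0.077). Of 35 tested genes of VEGF, angiopoietin, Notch and TGF-beta signalling, 18 lay above 0 and 17 below, none passed, and the median was 0.0082. Vegfa, the main ligand of Kdr, stood at 0.022 (0.088) in the authors' deposited table, while the smallest p in that list belonged to Vegfd at 0.45 (0.24, unadjusted p = 0.0558).

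**Figure D4:**
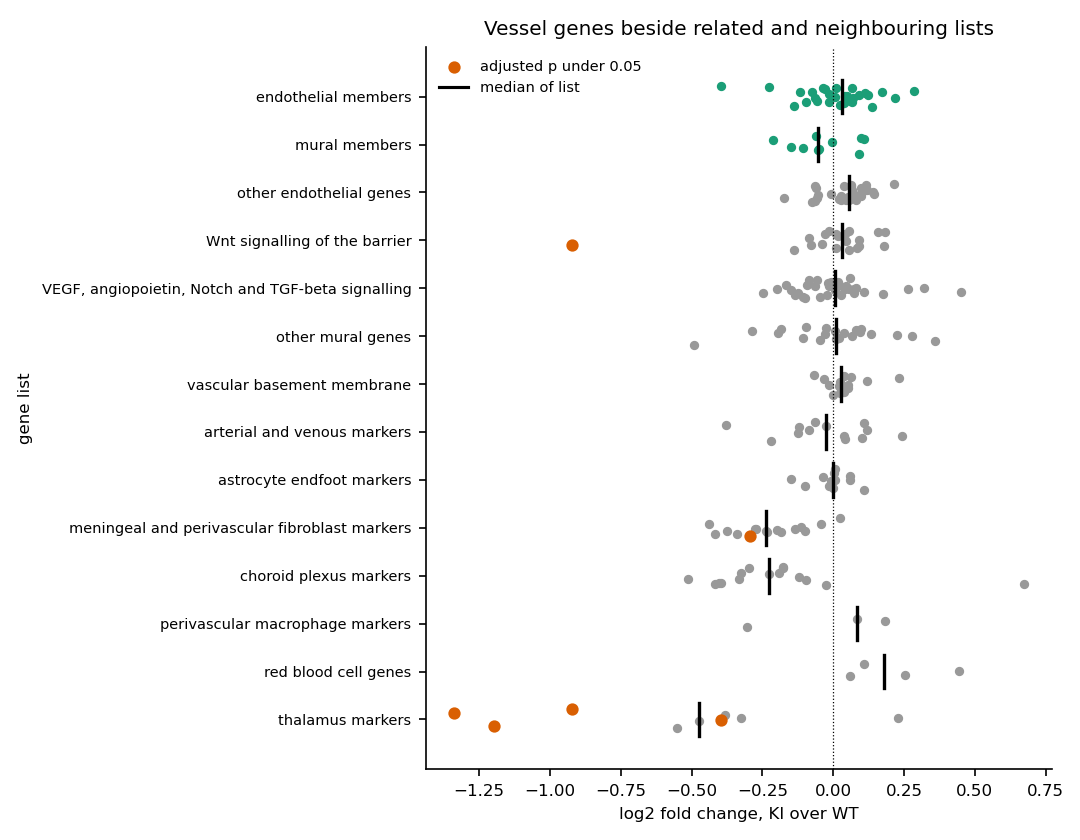
Log2 fold change, KI over WT, of the endothelial and mural members (green) and of genes in the 12 lists beside them (grey), with the median of each list as a bar and genes past an adjusted p of 0.05 in orange. The vessel lists centre near 0 (endothelial median 0.031, mural -0.052), and the orange points are Tcf7l2 (in 2 lists), Igf2, Tnnt1, Prkcd and Ramp3.

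Markers of neighbouring tissues and cells were listed too, and these lists were chosen with earlier results of these data known. Meningeal and perivascular fibroblast markers had 15 of 16 genes below 0 (median log2 fold change -0.24), and 1 passed, beside 0.0732% of all genes. That gene was Igf2, which fell to 0.815 of WT (adjusted p = 0.0022, DESeq2) in the authors' deposited table. Choroid plexus markers had 14 of 15 below 0 (median -0.23) and none past the threshold. Of the 15, 8 had an unadjusted p under 0.05 (beside 3.22% of all genes), 7 of them below 0 (beside 1.88% of all genes). The 1 above 0 was Tmem72, at 0.67 (SE 0.21, unadjusted p = 0.0016) in the authors' deposited table, the largest value of the list in either direction. The choroid plexus list had summed mean normalised counts of 26261, of which Ttr gave 13144 and Enpp2 10918. Which cells gave these counts was not tested. Some members are also made in those tissues. Slc22a8, for example, is a known transporter of choroid plexus, and vessels of the meninges carry smooth muscle. Slc22a8 stood at 0.060 and the 4 smooth muscle members had a median of -0.052, and the part of these tissues in those values was not tested. Astrocyte endfoot markers, which border the vessels, had 7 of 12 above 0 and a median of 0.0011 (-0.0028 with the length trend removed), with Aqp4, the water channel of endfeet, at 0.059 (0.097) in the authors' deposited table. Of 7 red blood cell genes, 4 were tested, all above 0 (median 0.18, none past the threshold), and all 4 intervals spanned 0. Sequence shared among these globin and other genes was not examined, so the 4 may not be separate measurements. Perivascular macrophage markers were listed for 3 of 8 genes, with 2 above 0.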

How the data were processed

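RNA-seq of the cortex was compared between 5 WT and 5 Chd8 KI libraries, grouped by their titles. Per the submitters' processing notes, reads were processed with Trimmomatic 0.39, HISAT2 2.1.0, featureCounts 2.0.0 and DESeq2 1.26.0 on mm10. The sources used here give no annotation, strand setting, filter or model formula. Per the file headers, the authors' deposited table holds the mean normalised count (a signal), the log2 fold change, its standard error, the Wald score, the p-value and the adjusted p-value. Its lowest mean normalised count was 24.4. Library depth is unknown.

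Gene numbers were named with the RefSeq annotation of GRCm38 (13497 of 13661). Adjusting the 13660 deposited p-values again by Benjamini-Hochberg gave the deposited adjusted values, and the threshold was 0.05. Intervals (95%) assume normal error with the standard error the authors deposited. Exon lengths, overlaps and shared 50-base stretches came from GENCODE M21. Calculations used Python 3.11.15 with pandas 2.3.3 and scipy 1.17.1, and the adjustment was tested on simulated data. The members, the 12 lists (216 genes) and the tests were chosen with earlier results of these data known, and set tests were not used. The text names members by role, with full statistics for the 2 of smallest p per role, and up to 4 genes of smallest p per list. Cdh5, Kcnj8, Abcb1b, Sparc, Adgra2, Fzd4, Axin2, Vegfa, Aqp4, Ttr and Slc17a7, the AGGAAG motif and the figures' labels were chosen otherwise, with values known. Alternatives were other thresholds, count minimums of 50 and 200, and removal of trends with transcript length or count. P-values are those of the authors' Wald tests on these libraries, and they do not themselves show the spread between animals.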

Additional observations from a re-analysis of the deposited data

How the results depend on the processing

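No member passed under any of the 6 alternatives tried for the count: thresholds of 0.1 and 0.01, count minimums of 50 and 200, a fold minimum and Wald scores divided by their robust spread (0.855). Under the last of these the smallest adjusted p of a member was 0.527. Over all genes the count of 10 became 6 at a threshold of 0.01, 5 with an absolute log2 fold change of at least 0.5 as well, and 23 with the scaled scores; it was 10 at a threshold of 0.1, 10 with a count minimum of 50 and 7 with one of 200. The median log2 fold change of the members (0.0081) was 0.011 with the length trend removed, 0.014 with the count trend removed, 0.0056 when centred, 0.0078 as a weighted mean, 0.038 over the 29 members with a count of at least 200 and -0.013 without 7 widely expressed members, so its sign depends on which members are taken. All 40 members kept their sign under centring and under both trend removals. Leaving out single libraries could not be done without values per library, and what each library contributes is unknown. No paired analysis was possible because the values analysed here are those of 1 comparison and carry no replicate numbers.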
